A study of Rattus norvegicus with 5 samples.

Results

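The small intestine of rats given 30% less food for 1 month (30% CR, the strongest restriction in the series) was set against the small intestine of control rats, gene by gene. Of 5 arrays in the series, 2 enter this comparison, the control array and the 30% CR array. The members are the gene probes (Affymetrix probe sets, each a group of short probes for a transcript) with a signal of at least 50 on both arrays. Of 15866 gene probes, 7367 (46.4%) met this and 7722 were below 50 on both. A further 353 reached 50 on the control array alone and 424 on the 30% CR array alone. *Cnot7*, at 50.1 on the control array, lay just inside the threshold, and *Acbd3*, at 49.9 on the 30% CR array, lay just outside it. Of the members, 6425 carry a single gene name and stand for 5821 genes, each described by its brightest gene probe.

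The rats were male Wistar rats, bought at 5 weeks and 6 weeks old at the start, which were kept singly on the AIN-93G powdered diet. Control rats received 100% of the recorded daily intake and 30% CR rats 70%, and all rats were fasted for 16 h before dissection. Each array holds the pooled small intestine RNA of 5 rats, so the comparison is 1 array against 1 array. It has no replicate, no test was possible, and differences between rats cannot be seen. The other arrays, of rats given 5, 10 or 20% less, show the range of the same gene probe over the series. They differ in diet as well as in pool, so they do not measure how far pools on the same diet vary. Signals are given below in the order control, 5, 10, 20 and 30% CR, and all log2 ratios are of signals to the control array.

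The small intestine breaks down and takes up nutrients through absorptive enterocytes, whose apical brush border carries phosphatases, peptidases and transporters. Enterocytes also oxidise and conjugate foreign compounds by cytochrome P450 enzymes, sulfotransferases and glutathione transferases. The epithelium runs on a circadian clock that is set partly by feeding time, and it renews itself from crypts that respond to food supply.

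Genes of xenobiotic metabolism (*Sult1a1*, *Cyp3a18*, *Gsta1*), the clock gene *Per2* and the B-cell attractant *Cxcl13* were among the highest at 30% CR, while brush border genes (*Akp3*, *Espn*), *Clca4* and the heat shock gene *Hspa1a* were among the lowest. In all, 33 gene probes were higher by a log2 ratio of at least 1 (0.448% of the members) and 12 were lower by as much (0.163%). By genes, 347 of 5821 were higher by at least 0.5 (5.96%) and 256 were lower by at least 0.5 (4.4%), and these shares are the background for the gene lists below. The median over all genes was −0.0043, with 49.4% above 0. The ratios spread more widely at weaker signals. The robust SD of the log2 ratio was 0.323 for mean signals of 50 to 100, 0.296 for 100 to 500 and 0.224 above 500, and above 500 only 2 gene probes were higher and 1 was lower by at least 1. At 5, 10 and 20% CR, with the same signal threshold and the same control array, 11, 14 and 23 gene probes were higher and 13, 8 and 18 lower by at least 1.

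**Figure D1:**
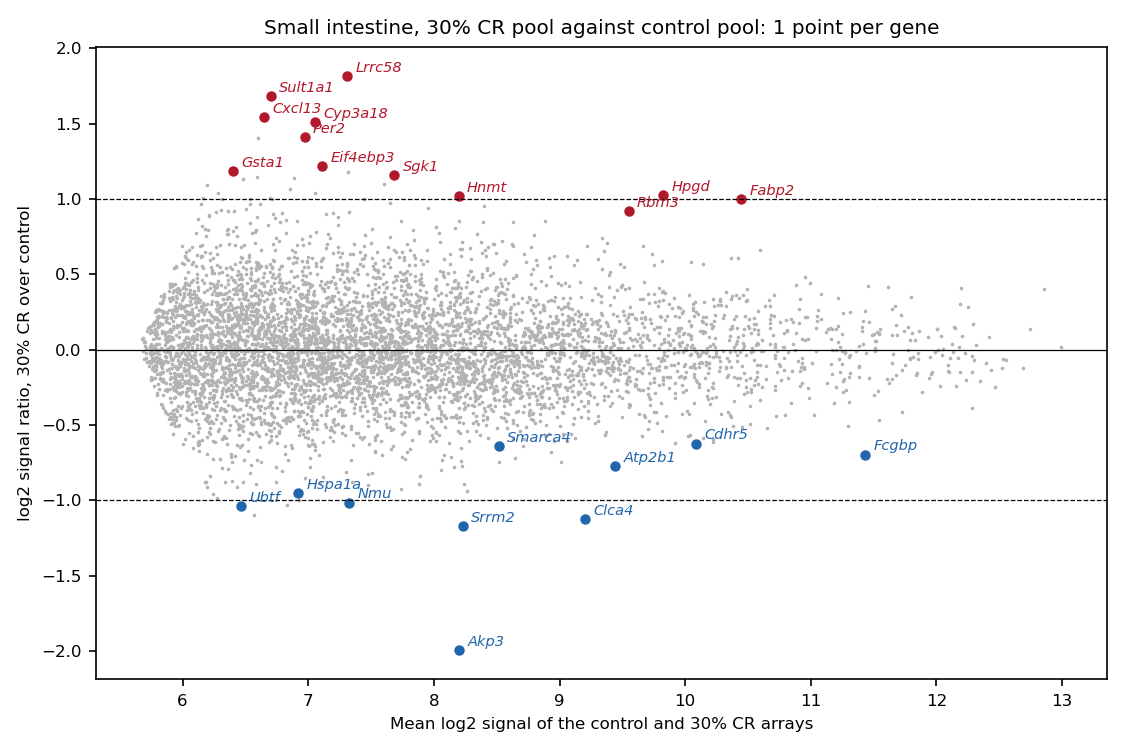
Log2 ratio of 30% CR over control (vertical axis) against the mean log2 signal of both arrays (horizontal axis), 1 point per gene for 5821 genes, with some named genes in red (higher) and blue (lower). The cloud is wider at weak signals, *Fabp2* at 1.00 and *Hpgd* at 1.03 lie far from it at bright signals, and *Akp3* at −1.996 is the lowest point.

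The signal ratio of the 3' to the 5' end of beta-actin was 2.30 on the control array and 2.32 at 30% CR, against 3.18 at 20% CR, and that of *Gapdh* was 1.40 and 1.21. The mean log2 signal of 9 spike-in array controls (RNA added from outside), relative to the control array, also differed. It was −0.324, 0.0678, 0.502 and −0.221 at 5, 10, 20 and 30% CR. Markers of the small intestine were present. The fatty acid-binding protein *Fabp1* had signals of 4065, 5205, 5369, 6468 and 5401, the intestinal cadherin *Cdh17* of 2446, 2269, 2247, 2875 and 2345 and the goblet cell peptide *Tff3* of 4272, 4385, 4105, 4975 and 4174. The proximal factor *Gata4* was level, with 429.9, 426, 408, 443 and 425. The ileal genes *Fabp6* (ileal bile acid-binding protein) and *Slc10a2* (bile acid transporter) were below 25 on every array.

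Exocrine pancreas genes set the control array apart. All 18 on the array were lower at 30% CR than on the control array, and 15 were highest on the control array. Of the 18, 9 were below 50 on every array, where signals are noisy. Among all genes that passed the threshold, 49.4% were above 0 at 30% CR. The share of all gene probes highest on the control array was not counted. Without *Cela1*, an elastase that these arrays detected at every level, the summed signal of the other 17 was 996, 324, 148, 204 and 175. The trypsinogen gene *Prss1* had signals of 174, 71.2, 2.4, 24.9 and 18.5, and 1369502_a_at, a gene probe with more than 1 amylase name, had 731, 127, 0.9, 0.4 and 1.0. None of these genes but *Cela1* passed the signal threshold at 30% CR, so none is counted among the lower genes. In pooled tissue, fewer cells of a type and less RNA per cell cannot be told apart. The part of pancreatic tissue on the control array in any ratio below was not tested.

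**Figure D2:**
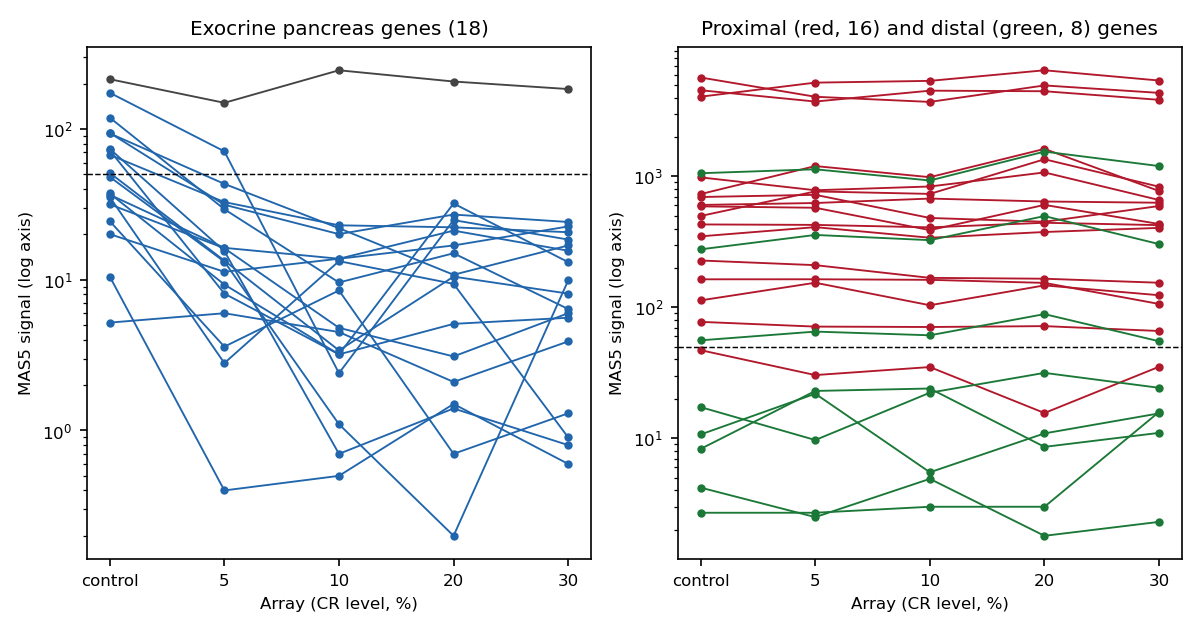
MAS5 signal (log axis) on the 5 arrays for 18 exocrine pancreas genes (left; *Cela1* in grey) and for 16 proximal and 8 distal small intestine genes (right); lines join the arrays of 1 gene and the dashed line is the signal threshold of 50. The pancreas genes other than *Cela1* drop from the control array to the 10% CR array, with *Prss1* at 174 and 2.4, while the proximal *Gata4* stays between 408 and 443.

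Some enzymes that conjugate or oxidise foreign compounds were higher at 30% CR, while most members of their lists stayed within 0.5. *Sult1a1*, which sulfates phenols, had signals of 58.1, 138, 129, 129 and 187. It was above the control array at every level and highest at 30% CR, at 3.21-fold (log2 1.68). *Sult1b1*, a second sulfotransferase for phenols and thyroid hormones, had 521, 634, 583, 798 and 820.4 and a ratio of 0.65. Of the 23 measured sulfotransferases, glucuronosyltransferases, reductases and hydrolases, 5 were higher by at least 0.5 and 1 was lower, with a median of 0.14. The others above 0.5 were *Ephx1*, which opens epoxides (0.55), the hydroxysteroid dehydrogenase *Akr1c14* (0.54, and 0.91 in its other gene probe) and the quinone reductase *Nqo2* (0.52). The aldehyde reductase *Akr7a3* was lower, at −0.50.

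Among 9 measured cytochrome P450 genes of 31 on the array, 3 were higher by at least 0.5 and none was lower by as much, with a median of 0.14. *Cyp3a18*, a drug- and steroid-oxidising enzyme, had 78.5, 131, 100.2, 204 and 224 and was highest at 30% CR, at 1.51. *Cyp3a9*, of the same family, had 499, 768, 736, 1353 and 835 and was highest at 20% CR, with 0.74 at 30%. The gene probe 1371076_at, whose annotation gives both *Cyp2b1* and *Cyp2b2*, had 89.0, 229.9, 255, 341 and 327, the highest ratio of all members at 1.88. *Cyp1b1* was at 0.54 with signals no higher than 86.3. *Cyp4b1*, named here after its values were seen, fell outside the comparison with 42.6, 102, 122, 127 and 81.9. With a signal of at least 100 on both arrays, the median of the measured P450 genes was −0.01.

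Glutathione transferases did not share a direction. *Gsta1* had 56.1, 86.7, 98.8, 78.6 and 128 (1.19) and the peroxisomal and mitochondrial *Gstk1* 163, 182, 152, 158 and 243 (0.58), whereas *Gstm1* had 124, 95.6, 80.2, 77.1 and 85.8 (−0.54). Of 17 measured, 2 were higher and 1 was lower by at least 0.5, with a median of 0.03. *Gclm*, the modifier subunit of glutathione synthesis, was at 0.56, the plasma selenoprotein *Selenop* at 0.66 and the gastrointestinal glutathione peroxidase *Gpx2* at −0.51. Over all 27 antioxidant and metallothionein genes the median was −0.01.

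In the arm of the circadian clock that holds the *Per* and Rev-erb genes, 3 of 5 measured genes were higher by at least 0.5 and none was lower by as much. *Per2*, a repressor in the clock loop, had 77.0, 204, 190.5, 232 and 205. All CR arrays were above the control, by log2 ratios of 1.31 to 1.59, and 30% CR (1.41) lay within that range. The nuclear receptor *Nr1d2* (Rev-erb beta) had 59.8, 186, 171, 138 and 113 and the deubiquitinase *Usp2*, a clock output, 66.4, 110.1, 129, 201 and 112. Both were above the control on every CR array, and *Nr1d2* was nearest to it at 30% CR (0.92). The other gene probes of *Nr1d2* did not reach 50 on the control array. *Per1*, with 64.6, 62.6, 110.4, 117 and 60.9, and *Bhlhe40*, a clock repressor with 142, 125, 96.9, 136 and 118, were at −0.085 and −0.27. Of 12 genes of this arm on the array, 5 were measured, with medians of 0.73, 0.96, 1.21 and 0.75 at 5, 10, 20 and 30% CR. With 50 added to every signal the median at 30% CR was 0.48, since these signals are weak. The clock output factor *Dbp* had 21.9, 136, 158, 97.8 and 48.6, and *Nr1d1* (Rev-erb alpha) 59.1, 66.3, 68.3, 37.1 and 23.6, so the first failed the threshold on both arrays and the second at 30% CR. *Dbp* was lower at 30% CR than on the other CR arrays, yet above the control.

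Of the opposite arm, the activator *Bmal1* had 102, 50.1, 47.0, 41.9 and 86.2, its partner *Clock* 123, 91.6, 81.1, 86.3 and 119 and the repressor *Nfil3* 85.6, 29.9, 31.1, 44.3 and 62.9. The median of the 3 at 30% CR was −0.25, against −1.03, −1.12 and −0.95 at 5, 10 and 20% CR. *Clock* was near the control level at 30% CR, at −0.05 and at 0.01 in its other measured gene probe. *Bmal1* was at −1.03, −1.12, −1.29 and −0.25, so on the 30% CR array it was closest to the control. Its signals at 10 and 20% CR, and those of *Nfil3* at 5, 10 and 20% CR, were below 50.

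Brush border genes did not share a direction. *Akp3*, an intestinal alkaline phosphatase, had 588, 415, 244, 412 and 147. The 30% CR signal was the lowest and the control the highest, at 0.251 of the control (log2 −1.996), the lowest ratio of all members. *Alpi*, a closely related intestinal alkaline phosphatase, had 1201, 1025, 796, 1369.9 and 780.3 (−0.62) and was highest at 20% CR. *Espn*, which bundles actin in microvilli, had 411, 237, 213, 408 and 221 (−0.89), and the microvillus protocadherins *Cdhr5* and *Cdhr2* were at −0.62 and −0.56. For *Cdhr5* the signals were 1349, 962, 966, 1364 and 876, with the control and 20% CR arrays together at the top. Of 20 measured enterocyte markers, 5 were lower and 1 was higher by at least 0.5, with a median of −0.14 at 30% CR and 0.24 at 20% CR. The higher one was *Fabp2*.

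Peptidases of the brush border and cytosol were more often higher. Of 14 measured, 4 were higher by at least 0.5 and 1 was lower, with a median of 0.14. *Dpep1*, a dipeptidase, had 144, 229, 219, 332 and 282 (0.97), and *Naaladl1*, an aminopeptidase, 70.9, 89.5, 95.4, 175 and 131 (0.88). Both were above the control at every level and highest at 20% CR. *Enpep* (glutamyl aminopeptidase) and *Lap3* (leucine aminopeptidase) were at 0.56 and 0.65, and *Npepps*, a puromycin-sensitive aminopeptidase, at −0.74. None of the 11 amino acid and peptide transporters passed 0.5, the peptide transporter *Slc15a1* being at 0.36. None of 8 sugar digestion and uptake genes did so either, with the glucose transporter *Slc5a1* at 0.13, *Slc2a2* at 0.077 and the fructose transporter *Slc2a5* at −0.12.

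*Fabp2*, the intestinal fatty acid-binding protein, had signals of 984, 1918, 1806, 2383 and 1969. All CR arrays stood well above the control, from 0.88 at 10% CR to 1.28 at 20% CR, with 1.00 at 30% CR. The fatty acid translocase *Cd36* had 113, 194, 162, 130.3 and 201 (0.83), and a brighter gene probe whose annotation adds another name, 1386901_at, had 213, 434, 351, 342 and 436 (1.04). *Cd36* and *Fabp2* were the 2 of 18 measured fat uptake and chylomicron genes past 0.5, and the list's median was −0.12. *Fabp1* was at 0.41, and the fatty acid transporter *Slc27a4* and the triglyceride-forming *Dgat2* were at −0.36 and −0.34. In fatty acid oxidation, 2 of 26 were higher and none lower by at least 0.5: *Angptl4*, a fasting-induced inhibitor of lipoprotein lipase, with 74.2, 101, 77.6, 117 and 148 (1.00), and *Decr1*, which helps to oxidise unsaturated fatty acids, with 267, 440.3, 399, 403 and 415 (0.64). *Cpt1a*, which brings fatty acids into mitochondria, was at 0.44 and *Acadm* at 0.39. In fatty acid synthesis the citrate carrier *Slc25a1* was lower (−0.61), *Fasn* was at −0.37, *Acly* at −0.35 and the regulator *Srebf1* at 0.49. Cholesterol synthesis (17 genes, median −0.05), the tricarboxylic acid cycle (19, 0.0075) and the respiratory chain (64, −0.08) had 1 gene past 0.5 among them, the complex I subunit *Ndufa6* (0.58). *Nampt*, the NAD salvage enzyme, had 81.6, 97.6, 112, 97.5 and 146 and was highest at 30% CR (0.84).

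Ion handling was split. *Clca4*, of the calcium-activated chloride channel regulator family, had 871, 567, 328, 462 and 400.1. It was below the control on every CR array, lowest at 10% CR, and at −1.12 at 30% CR. *Sgk1*, a kinase induced by glucocorticoids that keeps sodium channels at the membrane, had 138, 287, 286, 522 and 307, above the control at every level and highest at 20% CR (1.16 at 30%). The membrane-bound carbonic anhydrase *Car4* had 70.3, 111, 153, 136 and 137 (0.96) and the cytosolic *Car2* 226, 176, 109.6, 113 and 151 (−0.58, and −0.96 in its other gene probe). The chloride-bicarbonate exchanger *Slc26a3* was at 0.51 and the water channel *Aqp1* at −0.71, with −0.57 in its other gene probe. Of 22 measured in this list, 3 were higher and 3 lower by at least 0.5. *Tsc22d3*, another glucocorticoid-induced gene, had 219, 202, 266, 218 and 333 (0.60), and *Fkbp5*, also induced by them, was at 0.29. Of 17 measured glucocorticoid and insulin response genes, 2 were higher and none lower by at least 0.5, with 9 above and 8 below 0 and a median of 0.02.

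Some iron and calcium uptake genes of the proximal intestine were lower on the 30% CR array, and others were not. Of 11 measured heme and iron genes, 2 were lower and 1 was higher by at least 0.5, with a median of −0.15. *Slc11a2*, the ferrous iron transporter, had 667, 528, 450.5, 689 and 398 (−0.74, and −0.27 in its other gene probe). *Cybrd1*, the ferric reductase beside it, had 164, 164, 162, 154 and 106 (−0.63), with 30% CR alone apart from the rest. The plasma membrane calcium pump *Atp2b1* had 911, 753, 595, 699 and 533 (−0.77) and the calcium-binding *S100g* 5696, 4060.0, 3709, 4954 and 4347 (−0.39). Of 4 measured calcium and phosphate absorption genes, 1 was lower and none was higher by at least 0.5. In that list 2 genes lay above 0, up to 0.33, and 2 below, with a median of −0.16. *Slc46a1*, also named after its values were seen, a proximal folate transporter, had 83.2, 81.3, 75.5, 98.2 and 34.8 and so failed the threshold. Of 15 measured proximal markers, 3 were lower by at least 0.5 (*Cybrd1*, *Ada*, *Pdx1*) and 1 was higher (*Cyp3a9*), with a median of −0.23. *Ada*, adenosine deaminase, had 984, 784, 838, 1073 and 660.4, and the duodenal factor *Pdx1* 228, 210.1, 168, 166 and 154, highest on the control array and lowest at 30% CR. The proximal list's median was −0.02 with a signal of at least 200 on both arrays. Its summed signal was 19830, 19140, 18990, 23020 and 18840. The part of where along the intestine the tissue was taken was not tested. *Hmox1*, which breaks down heme, had 90.8, 50.4, 54.7, 49.0 and 37.2 and failed the threshold at 30% CR, while *Blvra*, the next enzyme of that pathway, had 95.2, 103, 78.4, 124 and 149 (0.65).

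Heat shock proteins and their cochaperones were lower as a group. The list is not purely cytosolic, since it holds the mitochondrial *Hspd1*, *Hspe1* and *Hspa9*, at −0.0077, −0.17 and 0.024. Of 27 measured genes, 20 were below 0, 5 were lower and none was higher by at least 0.5, with a median of −0.29 against −0.0043 for all genes. *Hspa1a*, the inducible Hsp70, had 168, 74.7, 88.0, 84.0 and 86.9, with the control array alone above the CR arrays (−0.95). *Hspa1b* is nearly identical in sequence, so the genes cannot be told apart with certainty, and 1368247_at, named for both, had a ratio of −1.01. The gene probes of the constitutive *Hsp90aa1* and *Hspa8*, which also carry a second name and are not counted in the list, were at 0.01 and −0.18 (1372701_at and 1388850_at) and at −0.20 (1398240_at). *Hspb1* (Hsp27) had 345, 271, 375, 324 and 212 (−0.70), lowest at 30% CR. *Stip1*, which links Hsp70 with Hsp90, had 611, 388, 440.4, 605 and 402 (−0.61), and *Dnajb1* (Hsp40) had 358, 261, 273, 281 and 244 (−0.55, and −0.36 in its other gene probe). The nucleotide exchange factor *Bag2* had 89.2, 87.3, 76.0, 67.2 and 62.3 (−0.52). *Hsph1* and *Hspb6*, the latter also a smooth muscle protein, were both at −0.42. The medians of the list at 5, 10 and 20% CR were −0.19, −0.09 and −0.11. The cytosolic chaperonin, whose subunits fold actin and tubulin, had 8 measured subunits, none past 0.5, with a median of −0.10.

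**Figure D3:**
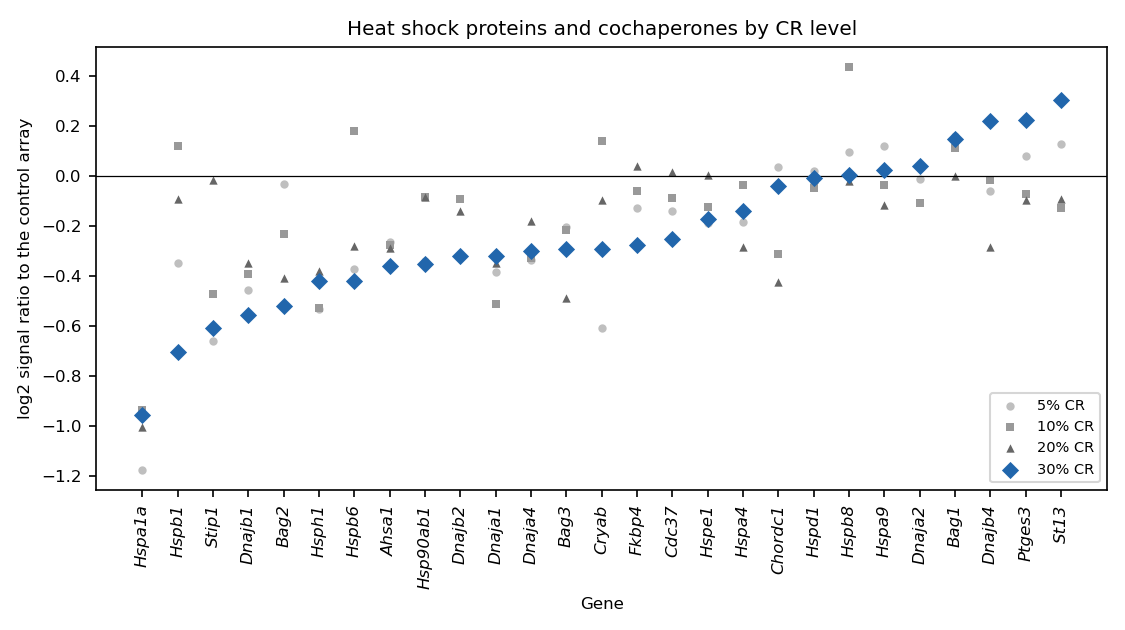
Log2 signal ratio to the control array (vertical axis) for 27 heat shock and cochaperone genes (horizontal axis, ordered by the 30% CR value) at 5, 10, 20 and 30% CR, 1 array each. At 30% CR (blue) 20 of 27 lie below 0, from *Hspa1a* at −0.95 to *St13* at 0.30, and *Hspa1a* is near −1 at every level.

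Heat shock factor binds inverted repeats of the unit nGAAn, and the promoters of the lower genes are shown for this reason. RefSeq promoters (GRCr8) were found for 23 of the 27 measured genes and searched for GAANNTTC and TTCNNGAA, each its own reverse complement and so read on both strands, which may overlap each other. In the 250 bases before the start, 13 of 23 (56.5%) held a match, against 3619 of 27457 (13.2%) of all promoters. *Hspd1* and *Hspe1* lie head to head and share the same 3 matches. Genes with ratios near 0 held matches too, among them *Hspd1* (−0.0077), *Hspb8* (0.0045) and *Hspa9* (0.024). Among the 5 genes lower by at least 0.5, *Hspb1*, *Dnajb1* and *Stip1* held a match (60%), and *Hspa1a* and *Bag2* held none in this window. The 130 bases before the start follow, 5′ to 3′ on the gene's strand, with matches in capitals. They lie at chr12:26432302-26432431 for *Hspb1*, chr19:41431142-41431271 for *Dnajb1* and chr1:213657655-213657784 for *Stip1*, all on the minus strand.
Hspb1: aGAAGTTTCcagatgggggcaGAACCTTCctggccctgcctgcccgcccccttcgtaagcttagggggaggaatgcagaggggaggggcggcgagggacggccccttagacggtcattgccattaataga
Dnajb1: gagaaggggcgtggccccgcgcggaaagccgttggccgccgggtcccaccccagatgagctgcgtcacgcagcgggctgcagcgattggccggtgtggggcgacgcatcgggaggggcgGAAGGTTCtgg
Stip1: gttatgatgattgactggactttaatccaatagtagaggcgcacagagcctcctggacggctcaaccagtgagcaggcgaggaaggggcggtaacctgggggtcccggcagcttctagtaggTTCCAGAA
These genes had log2 ratios of −0.70, −0.55 and −0.61, and the matches are a description of the sequence alone.

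Lists of growth-related genes had medians near 0. Among the 12 measured immediate early factors, 3 were lower by at least 0.5: *Myc*, which drives cell growth (108, 54.3, 86.1, 75.1 and 62.4, −0.79), *Klf6* (−0.63, and −0.39 in its other gene probe) and *Egr1* (−0.56). The list's median was 0.08. *Tars1*, threonyl-tRNA synthetase, had 426, 267, 363, 217 and 222 (−0.94) and *Dkc1*, the pseudouridine synthase of ribosomal RNA, 237, 148, 251, 229.6 and 134 (−0.82). *Eif4ebp3*, which holds back cap-dependent translation, had 90.6, 172, 161, 243 and 210.3, above the control at every level and highest at 20% CR (1.21 at 30%). None of 39 cytosolic ribosomal protein genes passed 0.5 (median 0.02). Of 31 proteasome subunits, 3 were lower by at least 0.5, *Psmd9* (−0.73), *Psmb7* (−0.57) and *Psma7* (−0.52), with a median of −0.11. DNA replication and cell cycle genes had a median of 0.12 over 43 genes, with the mitotic kinase *Aurkb* (0.89) and the clamp loaders *Rfc4* (0.69) and *Rfc2* (0.55) higher and *Ccnb2* lower (−0.50). In the endoplasmic reticulum, *Xbp1*, a factor of secretory cells, had 1108, 1716, 1186, 1352 and 1691 (0.61), the disulfide isomerase *Pdia3* was at 0.57 and the translocon subunit *Sec61a1* at −0.50, with −0.11 in its other gene probe.

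**Figure D4:**
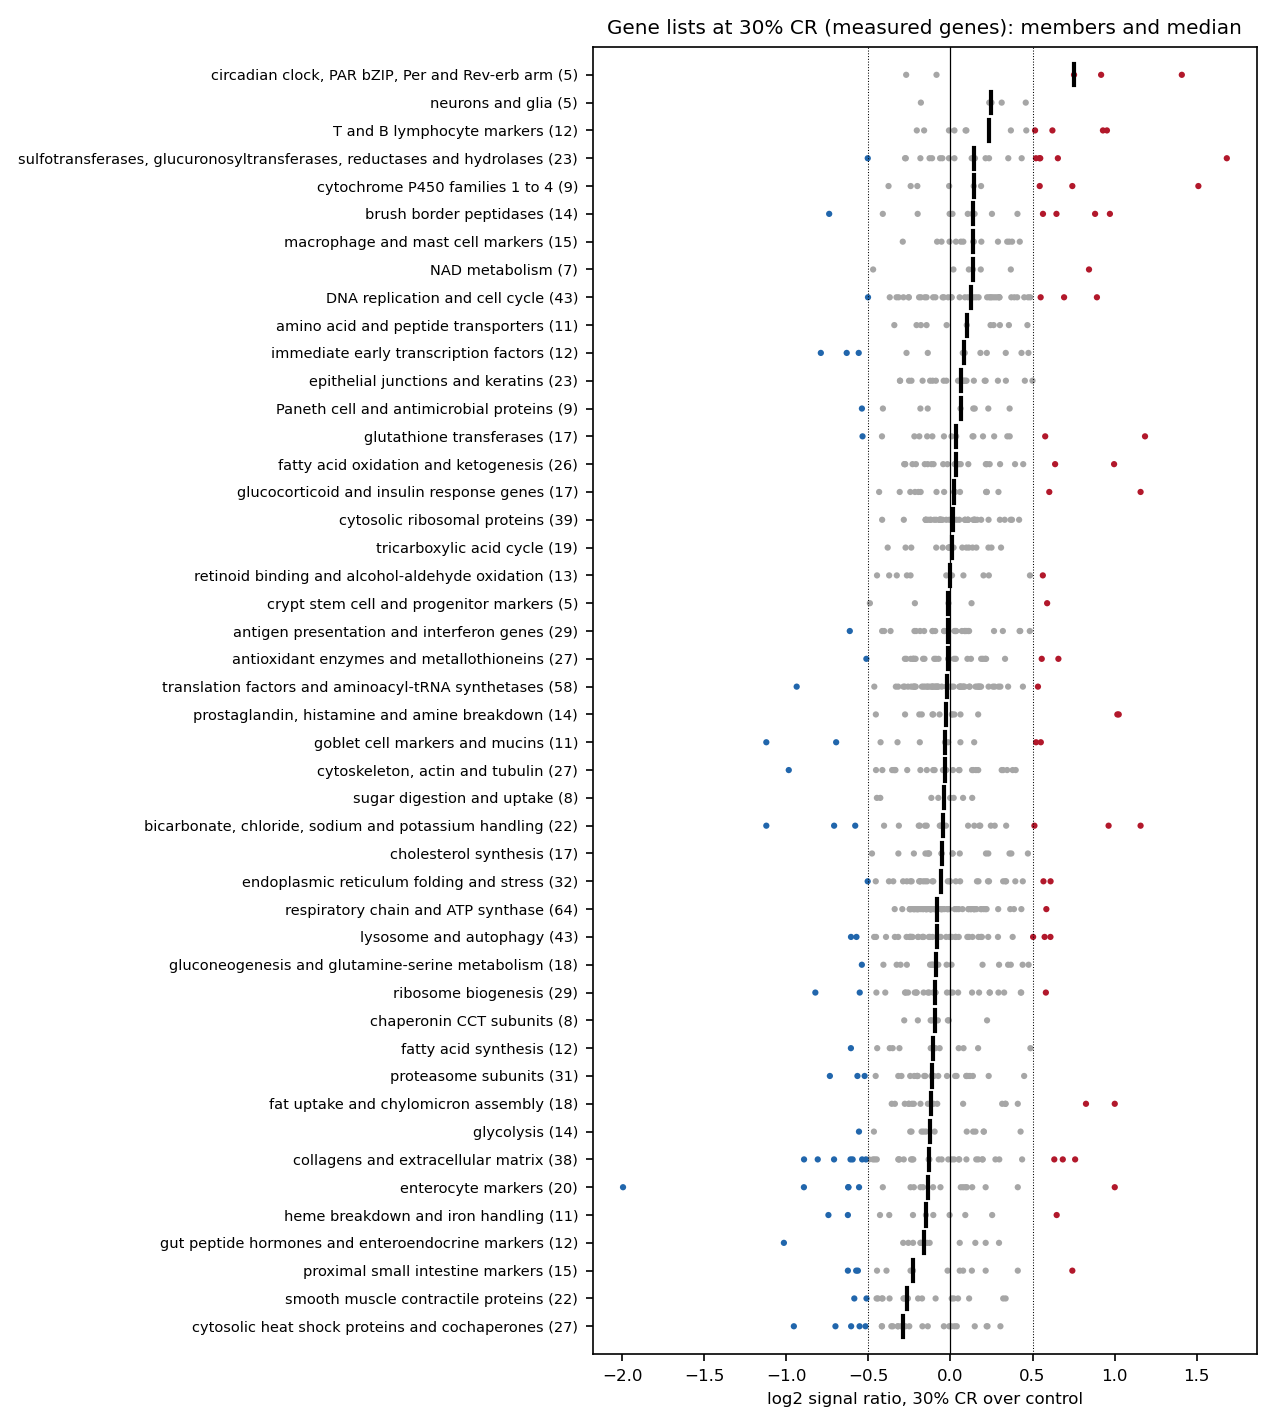
Log2 ratio of 30% CR over control (horizontal axis) for the measured genes of each list with at least 5 of them (rows, number in brackets); points are genes, red or blue past 0.5 (dotted lines), and the black bar is the median. The clock arm of *Per2* has the highest median (0.75) and the heat shock list the lowest (−0.29), while most lists centre near 0.

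Among 14 measured genes of prostaglandin, histamine and amine breakdown, 2 were higher by at least 0.5 and none was lower by as much, with 7 above and 7 below 0 and a median of −0.029. *Hpgd*, which inactivates prostaglandins, had 635, 945, 929, 769 and 1293, highest at 30% CR and lowest on the control array (1.03). Its other gene probe had 0.98. *Hnmt*, which inactivates histamine, had 206, 307, 275, 349 and 418 in the same pattern (1.02). The amine oxidase *Maoa* was at −0.28. *Nmu*, the gut peptide neuromedin U, had 228, 157, 171, 181 and 113, highest on the control array and lowest at 30% CR (−1.02), while *Cck*, *Gip* and *Chga* were at 0.21, 0.057 and 0.30. It was the single one of 12 measured gut hormone and enteroendocrine genes past 0.5.

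Of 11 measured goblet cell and mucin genes, 2 were higher and 2 lower by at least 0.5. In that list 4 lay above and 7 below 0, with a median of −0.03. The secreted *Clca1*, *Tff3* and *Zg16* were at −0.19, −0.03 and −0.01. The mucus protein *Fcgbp* had 3518, 2673, 2724, 3766 and 2171 (−0.70), the secreted mucin *Muc2* 2264, 2032, 1703, 2015 and 1810.5 (−0.32) and the membrane mucin *Muc3* 604, 922, 871, 1502 and 884 (0.55). The antimicrobial lectin *Reg3b* had 1086, 939, 2064, 828 and 747, with 10% CR far above the rest and 30% CR lowest (−0.54). It was the single one of 9 measured Paneth cell and antimicrobial genes past 0.5, and 5 of the 9 were above 0.

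Some leukocyte genes and a chemokine for B cells were higher. *Cxcl13*, which draws B cells into follicles, had 58.8, 112, 127, 71.6 and 171, highest at 30% CR (1.54). Of 12 measured T and B lymphocyte markers, 4 were higher and none lower by at least 0.5, with a median of 0.23. In that list 9 lay above and 3 below 0, among the latter *Ccl5* (−0.21) and *Cd74* (−0.16). The pan-leukocyte genes *Ptprc* and *Cd53* had 57.4, 91.9, 88.5, 50.1 and 109 and 243, 372, 383, 206 and 470.2, and *Rac2* and *Ptprcap* were at 0.62 and 0.52. On each of these genes the 5% CR array was also above the control. The T-cell receptor component *Cd3g* was at 0.09, and *Cd3e* and *Cd79b* were below 50 on every array. The list's median was 0.11 with a signal of at least 25 and 0.10 with at least 100, so its size depends on which markers are counted. Its summed signal was 7442, 7510, 8759, 8291 and 7691. None of 15 macrophage and mast cell markers passed 0.5.

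Among 22 measured smooth muscle contractile genes, 16 were below 0 and 2 were lower by at least 0.5, the filament protein *Des* (1384, 971, 1559.6, 897 and 922, −0.59) and *Synpo2* (−0.51, and −0.17 in its other gene probe), with a median of −0.26. *Myh11* and *Actg2*, smooth muscle myosin and actin, were at −0.41 and −0.28. The list's medians at 5, 10 and 20% CR were −0.28, 0.15 and −0.20, and its summed signal was 22410, 18200, 24320, 20160 and 18540, so the 30% CR array was among the lower ones without lying outside them. Of 38 extracellular matrix genes, 7 were lower and 3 higher by at least 0.5. *Col3a1* had 1468, 1180.1, 1376, 969 and 971 (−0.60), *Tnc* 208, 112, 169, 129 and 119 (−0.81), and *Col1a2* −0.89 in its brightest gene probe but −0.01 in the other. *Vim* (0.68), *Mgp* (0.76) and *Sparcl1* (0.63), an intermediate filament and secreted matrix proteins, were higher. The matrix list's median was −0.13, and 0.05 with a signal of at least 200 on both arrays. The beta-globin *Hbb* was at −0.72, while *Bpgm*, the other measured erythrocyte marker, was level at −0.003. The other 3 of 5 erythrocyte markers were below 50 on every array. The part of muscle layer, lymphoid tissue or blood in these ratios was not tested.

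The highest of all named genes was *Lrrc58*, a leucine-rich repeat protein, with 84.6, 173, 162, 154 and 298. At 30% CR it was 3.52-fold above the control (1.82) and 0.79 (log2) above the next array. *Pstk*, a kinase of selenocysteine synthesis, had 59.7, 98.5, 104, 67.6 and 158 (1.41), and the lectin receptor *Cd302* 106, 158, 120.1, 130.4 and 239 (1.18). Among the 20 highest, *Rab5a* of early endosomes had 65.0, 117, 94.0, 86.5 and 144 (1.14, and 0.58 in its other gene probe), *Rab9a* of late endosomes 133, 266, 143, 151 and 284 (1.10) and the phosphoinositide phosphatase *Mtmr6* 60.2, 89.4, 71.5, 49.1 and 132 (1.13). For *Rab9a*, 5% CR was nearly as high as 30% CR, and the 10 and 20% CR arrays lay near the control. The cold-inducible RNA-binding protein *Rbm3* had 545, 966, 846, 529 and 1031 (0.92), with 20% CR at the control level.

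Among the 20 lowest, *Prkaca*, the catalytic subunit of protein kinase A, had 163, 139, 155, 134 and 79.5 and *Ubtf*, a factor of ribosomal RNA transcription, 126, 128, 96.6, 112 and 61.5. Both were lower at 30% CR than on any other array (−1.03 and −1.04), but the other gene probe of *Ubtf* was at −0.26. *Srrm2*, a splicing coactivator, had 450.2, 270.1, 369.8, 268 and 200.1 (−1.17) and 0.04 in its other gene probe. *Mfn2*, which fuses mitochondria, had 243, 161, 149.6, 183 and 130.5 (−0.90) and *Trak2*, which carries them along microtubules, 294, 178, 239, 209 and 155 (−0.93, and −0.30 in its other gene probe). These were lower on every CR array.

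**Figure D5:**
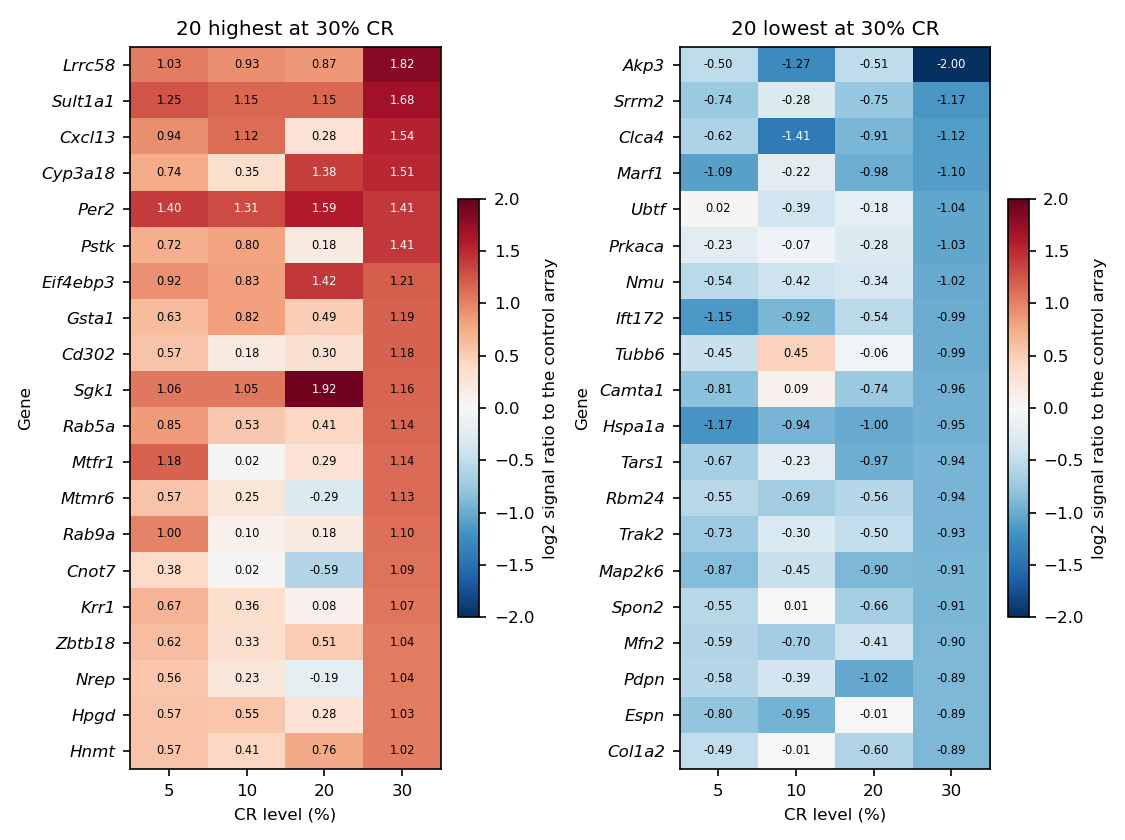
Log2 ratio to the control array (colour and printed value) at 5, 10, 20 and 30% CR for the 20 genes with the highest (left) and the 20 with the lowest (right) ratio at 30% CR; each column is 1 array and all share the control array. *Per2* is alike at every level (1.31 to 1.59), *Lrrc58* is furthest at 30% CR (1.82), and *Tubb6* is lower at 30% CR (−0.99) yet 0.45 at 10% CR.

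The 30% CR array was set against the other 4 over 6951 gene probes with a signal of at least 50 on all 5 arrays. It lay outside them by a log2 difference of at least 1 for 0 above and 0 below, and by at least 0.5 for 14 above and 16 below. The counts at 1 were 1 and 5 for the control array, and 0 and 0, 1 and 0, and 0 and 1 at 5, 10 and 20% CR. The same counts at 0.5 were 18 and 27 for the control array, 1 and 2 for the 5% CR array, 11 and 12 for the 10% CR array and 27 and 52 for the 20% CR array. Genes for which 30% CR stood alone included *Lrrc58*, *Lancl2* (62.9, 61.3, 68.4, 55.5 and 107), the antiproliferative *Tob1* (352, 409, 379.7, 380.0 and 636) and *Rpe* of the pentose phosphate pathway (117, 147, 149, 94.8 and 220.1) above the others, and *Prkaca*, *Akp3*, *Nosip* (121, 108, 108, 133 and 65.9) and the lysosomal pump *Atp13a2* (86.3, 88.3, 86.2, 94.9 and 56.4) below them. The medians of the 33 gene probes higher by at least 1 were 0.80, 0.49, 0.37 and 1.10 at 5, 10, 20 and 30% CR, and those of the 12 lower were −0.61, −0.40, −0.63 and −1.06. These gene probes were chosen by their 30% CR ratio, so a median past 1 at 30% CR was fixed in advance. Smaller medians at the other levels follow in part from that choice. All these ratios share the control array. The 5 and 20% CR arrays are not part of the comparison. The log2 ratio of 5% over 20% CR correlated with that of 30% CR over control at r = 0.355 across the 6951 gene probes, which are not independent. On the spike-in controls the 5 and 30% CR arrays were below the control array and the 20% CR array was above it. The part of this in the correlation was not tested. Of 420 higher by at least 0.5 at 30% CR, 340 were also higher at 5% than at 20% CR, against 53.8% of all. Of 337 lower by at least 0.5 at 30% CR, 223 were lower at 5% than at 20% CR, with a median ratio of −0.134 against 0.0267 over all. For 5% over 10% CR the correlation was 0.335, with 337 of the 420 higher, against 49.8% of all, and 228 of the 337 lower. The median of those 337 was −0.165, against −0.00179 over all. For 10% over 20% CR the correlation was 0.0697, with 248 higher, against 54.1% of all, and 157 lower. Here the median of the 337 was 0.016, against 0.0296 over all.

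Second gene probes of the same gene gave smaller ratios, in part because the genes were chosen by the ratio of their brightest one. Of 33 genes whose brightest gene probe was higher by at least 0.5 and that had another measured one, 22 were positive in it and 6 passed 0.5, with a median of 0.12. Of 30 lower genes, 20 were negative and 6 passed, with a median of −0.18. Across all 534 such genes the correlation between both gene probes was 0.24. At a signal of 100 or more on 1 array and less than 50 on the other, 7 gene probes were found on the control array alone (with *Prss1*, *Cela2a*, *Slc4a7*, *Acbd3*, *Syp* and *Rgs4*) and 2 on the 30% CR array alone. *Igsf8*, an immunoglobulin superfamily protein, was 1 of the latter, with 39.1, 76.3, 64.5, 94.9 and 111. *Slc4a7*, a sodium bicarbonate cotransporter, had 145, 77.4, 45.1, 66.1 and 45.9.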

How the data were processed

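The intestine arrays are Affymetrix Rat Expression Set 230 arrays, 1 per pool. The deposited values are MAS5 intensities on a linear scale, which the authors computed and scaled per the labels and the study's methods, and the trimmed mean without the lowest and highest 2% was 132 on every array. Because MAS5 subtracts mismatch probes, weak signals are noisy, and after scaling a change in total RNA between pools cannot be seen. The authors' detection and change calls are not used here. From the deposited signals, log2 ratios to the control array were computed over gene probes with at least 50 on both arrays, without the 57 array controls. Of 15866 gene probes, 12783 carry 1 name in the platform annotation, 312 several and 2771 none. Genes are named from single-name gene probes, by the brightest. With 1 array per group there are 0 residual degrees of freedom, so no test, and the number of arrays limits the precision.

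The members and the 56 gene lists were chosen with earlier results of these data and the paper known. The named genes are the 20 highest and 20 lowest, the 10 highest and 10 lowest with signals of at least 500, up to 6 of each list by size, those the paper names, those past the threshold on 1 array alone, those for which the 30% CR array stands outside the others, and marker genes. Others are marked as chosen after their values were seen, except *Dbp*, *Nr1d1* and *Hmox1*, which belong to the lists and were so chosen too. Alternatives were median centring, quantile normalization, other signal thresholds, an added constant of 50 and the mean of a gene's probes. The counting was checked on simulated data. Python 3.11.15, numpy 2.4.6, pandas 2.3.3 and matplotlib 3.10.9 were used. Promoter sequences are from RefSeq (GRCr8).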

Additional observations from a re-analysis of the deposited data

Results flagged for a closer look

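*Card10*, a scaffold protein of NF-kappaB signalling, had signals of 79.5, 89.1, 85.9, 82.9 and 52.8 on the control, 5, 10, 20 and 30% CR arrays. Its log2 ratio to the control was 0.16, 0.11 and 0.06 at 5, 10 and 20% CR and −0.59 at 30% CR. The milder ratios were smaller than the robust SD over all gene probes at those levels (0.248, 0.215 and 0.252). At 30% CR most gene probes with mean signals of 50 to 100 lay between −0.621 and 0.734, a range that holds the *Card10* value. With 1 array per level, the difference between 30% CR and the milder levels was not tested.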

How the results depend on the processing

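The counts of gene probes past a log2 ratio of 1 depended on the signal threshold. Against 33 higher and 12 lower in the report, there were 74 and 37 with a signal of at least 25, 9 and 7 with at least 100, 4 and 3 with at least 200, 45 and 25 with the threshold on the mean of both arrays, 1319 and 1221 without a threshold, and 6 and 2 with 50 added to every signal. Quantile normalization gave 30 and 14 and median centring 33 and 12. The share that was higher was 73.3% in the report, 66.7% at 25, 56.2% at 100, 57.1% at 200, 64.3% on the mean, 51.9% without a threshold and 75% with the added constant. Over all alternatives together, 305 list medians were classed as the same and 33 as moved, and 1262 ratios of named genes as the same and 41 as moved. Median centring shifts every gene alike by a very small value, so its unchanged results were fixed in advance. The mean of a gene's probes cannot change genes with 1 measured gene probe. Of the named ratios, 33 moved with 50 added and 8 with that mean. Of the list medians, 10 moved with at least 100 and 13 with at least 200. No paired analysis was possible because each pool holds different rats on a single diet. Leaving out a replicate was not possible with 1 array per group, and weak signals limit what small ratios can show.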
